A study of Sus scrofa with 4 samples.

Results

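The zona pellucida and oocyte growth factor genes are 7 genes that an oocyte transcribes while it grows: ZP2, ZP3 and ZP4, which encode glycoproteins of the egg coat, GDF9 and BMP15, which encode secreted growth factors, and FIGLA and NOBOX, which encode transcription factors. They were found by gene symbol in a table of 25560 gene names from 4-cell pig embryos (Sus scrofa), and all 7 were present, each as 1 transcript row. Their RNA was compared between embryos labelled control and embryos labelled TFAP2C knockdown, with the persistence of oocyte RNA as the question. No oocyte or earlier stage was measured, so RNA inherited from the oocyte cannot be told apart from RNA newly made by the embryo. The values are relative to the other RNA of a library and do not give an amount per embryo. TFAP2C encodes the transcription factor AP-2 gamma.

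There were 2 libraries per group. The labels give the genotype as Control with the treatment Control, or as TFAP2C KD with the treatment siRNA injection, and describe injection into the cytoplasm for every sample. The sources used here do not say what the control embryos received, how many embryos made up a library, or whether libraries of a group were independent. The p-values below measure only how far these 4 libraries spread, and that spread may be technical. In bulk RNA from whole embryos, fewer cells and less RNA per cell cannot be told apart.

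The zona pellucida is a layer of glycoprotein filaments around the egg that sperm bind and that hardens after fertilization. In the pig it is built from ZP2, ZP3 and ZP4. GDF9 and BMP15 belong to the TGF-beta family, are cleaved from precursors, and act on the granulosa and cumulus cells around the oocyte through BMPR2 with a type I receptor, TGFBR1 for GDF9 and BMPR1B for BMP15. In the mouse, FIGLA is needed for transcription of the zona genes, and NOBOX, a homeobox factor, for that of Gdf9 and Bmp15. The early embryo clears RNA inherited from the oocyte as its own genome becomes active.

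The deposited values imply 6.07 to 8.83 aligned gigabases per library, and a library held 9238 to 9917 genes at 1 FPKM or more (FPKM scales fragments to transcript length and library size). The targeted gene TFAP2C stood at 14.7 and 7.78 FPKM under control-labelled libraries 1 and 2 and at 0.448 and 3.11 FPKM under knockdown-labelled libraries 1 and 2. In that row, however, coverage divided by FPKM was 6.07, 8.83, 6.69 and 7.03, where the constants of the same libraries in the other rows above 1 FPKM were 6.69, 7.03, 6.07 and 8.83. The values under each label thus carry the scale of the other group's libraries. Matched by scale, 14.7 and 7.78 FPKM go with knockdown-labelled libraries 1 and 2, and 0.448 and 3.11 with control-labelled libraries 1 and 2. Read that way, the targeted gene is lower in the control-labelled libraries, against the labels. Whether this row or the other rows are exchanged cannot be told here, so TFAP2C does not check the labels. Directions below are the libraries labelled knockdown minus the libraries labelled control, and would turn if the labels were exchanged. Protein genes encoded by mitochondrial DNA took 18.5% and 24.1% of TPM (a share of all transcripts, scaled per length) in control-labelled libraries 1 and 2, and 39.9% and 26.95% in knockdown-labelled libraries 1 and 2.

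RNA of these oocyte genes was found at the 4-cell stage, except that FIGLA was listed at 0 in knockdown-labelled library 1. In all 4 libraries BMP15 stood above every zona gene and GDF9 above ZP2 and ZP3. BMP15 was the highest member in all 4 libraries, with FPKM of 624 to 851. It ranked between 54 and 72 among all genes of a library. GDF9 followed, with 191 to 542 FPKM, then ZP4 with 92.7 to 206, ZP2 with 12.1 to 18.1, ZP3 with 3.34 to 8.88, NOBOX with 1.24 to 3.04 and FIGLA with 0 to 2.1. These are levels per transcript length. The alignment, described under the processing below, could understate some genes more than others, and its part in this order was not tested. ACTB, for example, stood at only 0.695 to 1.56 FPKM over the 4 libraries. Of the neighbours in this order, GDF9 and ZP4 had overlapping ranges and stood in the opposite order in knockdown-labelled library 2, and NOBOX and FIGLA had overlapping ranges but kept their order in all 4 libraries. The other neighbours had ranges that did not overlap.

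None of the members passed the test for a difference between the groups. Of the 7, 6 had a mean of at least 1 FPKM and were tested, and FIGLA was not. All 6 had a negative log2 difference, as did 57.6% of the 9850 genes tested, and GDF9 and ZP3 stood farthest below 0, with a mean FPKM in the knockdown-labelled libraries of 0.452 and 0.425 times that in the control-labelled libraries. No member was called lower, where 1.46% of all tested genes were, and none was called higher, where 5.11% were (limma with Benjamini-Hochberg adjustment, threshold 0.05). At an unadjusted p under 0.05, GDF9 and ZP3 were lower, 2 of 6, beside 13.9% of all tested genes. Both knockdown-labelled libraries lay below both control-labelled libraries for 5 of the 6, all but ZP4, beside 35.8% of all tested genes. The median log2 difference of the 6 was -0.47, and that of all tested genes was -0.135.

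**Figure D1:**
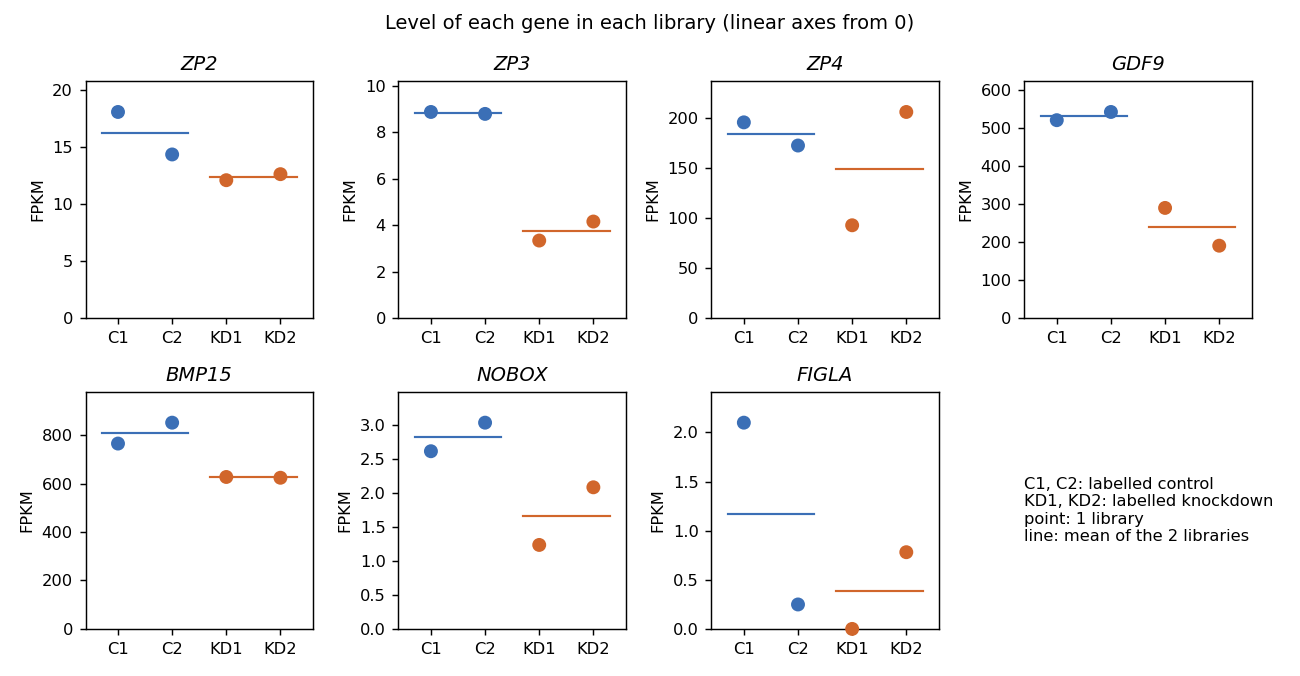
FPKM of the 7 genes in each library on linear axes that start at 0, with points for single libraries and lines for the means of the labelled control (C1, C2) and labelled knockdown (KD1, KD2) libraries. The groups are apart for ZP2, ZP3, GDF9, BMP15 and NOBOX and overlap for ZP4, where KD1 is at 92.7 and KD2 at 206 FPKM, and for FIGLA.

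Among the zona genes, ZP3 was the lowest in level and had the largest difference. ZP3 (gene ID 396927, chromosome 3, 9934760 to 9944924, Sscrofa11.1), which in the mouse joins ZP2 in the coat's filaments and takes part in sperm binding, stood at 8.88 and 8.79 FPKM in control-labelled libraries 1 and 2 and at 3.34 and 4.16 FPKM in knockdown-labelled libraries 1 and 2. The control-labelled libraries were nearly equal and both knockdown-labelled libraries were below them. The log2 difference on the log2(FPKM + 1) scale was -1.05 (SE 0.28, 95% interval -1.73 to -0.38), and it missed the threshold (limma, Benjamini-Hochberg adjusted p = 0.0813). Only 6.56% of tested genes had a more negative difference.

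ZP2 (gene ID 396846, chromosome 3, 24863730 to 24877522), whose protein is cleaved after fertilization in the block to further sperm, stood at 18.1 and 14.4 FPKM in the control-labelled libraries and at 12.1 and 12.6 FPKM in the knockdown-labelled libraries. The groups did not overlap, but the gap between them was smaller than the gap between the control-labelled libraries. Its log2 difference was -0.36 (SE 0.28, 95% interval -1.04 to 0.32, limma with Benjamini-Hochberg adjusted p = 0.434).

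ZP4 (gene ID 397111, chromosome 14, 53577138 to 53584544), a coat protein that the pig has and the mouse lacks, carried most of the zona RNA. It stood at 195 and 172 FPKM in the control-labelled libraries and at 92.7 and 206 FPKM in knockdown-labelled libraries 1 and 2. Knockdown-labelled library 1 was the lowest library and knockdown-labelled library 2 the highest, on either side of the control-labelled libraries. The log2 difference of -0.41 (SE 0.42, Benjamini-Hochberg adjusted p from limma = 0.561) became 0.16 without knockdown-labelled library 1 and -0.98 without knockdown-labelled library 2. ZP4 made up 87.9% and 88.1% of summed zona FPKM in the control-labelled libraries and 85.7% and 92.4% in the knockdown-labelled libraries.

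Of the growth factors, GDF9 had the larger difference. GDF9 (gene ID 414285, chromosome 2, 135181494 to 135184451) stood at 521 and 542 FPKM in control-labelled libraries 1 and 2 and at 290.0 and 191 FPKM in knockdown-labelled libraries 1 and 2. Both knockdown-labelled libraries were far below the control-labelled libraries, which lay close together. The log2 difference was -1.17 (SE 0.31, 95% interval -1.93 to -0.41) and missed the threshold (limma, Benjamini-Hochberg adjusted p = 0.0824). Its rank among the genes of a library was 91 and 83 in the control-labelled libraries and 173 and 312 in the knockdown-labelled libraries, and 4.61% of tested genes had a more negative difference.

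BMP15 (gene ID 448811, chromosome X, 44613122 to 44620575) stood at 765 and 851 FPKM in the control-labelled libraries and at 627 and 624 FPKM in the knockdown-labelled libraries. The knockdown-labelled libraries were nearly equal and both were below the control-labelled libraries. The log2 difference was -0.37 (SE 0.26, 95% interval -1.003 to 0.27, limma with Benjamini-Hochberg adjusted p = 0.392). BMP15 ranked 57 and 54 in the control-labelled libraries and 70 and 72 in the knockdown-labelled libraries.

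The call on GDF9 depended on the scaling. On TPM in place of FPKM its log2 difference was -1.46 and it passed the threshold (limma, Benjamini-Hochberg adjusted p = 0.048), as 2.72% of all tested genes did in that direction. With TPM the median of all tested genes was -0.39, so relative to the median GDF9 was at -1.06 with TPM and at -1.04 with FPKM. TPM rescaled without the 13 mitochondrially encoded protein genes, an alternative chosen after seeing the data, gave -1.21 for GDF9 (limma, Benjamini-Hochberg adjusted p = 0.0767) and -1.20 for ZP3 (adjusted p = 0.0766). Over all 14 alternatives the adjusted p of GDF9 ran from 0.048 to 0.259 and that of ZP3 from 0.0606 to 0.290 (limma).

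**Figure D2:**
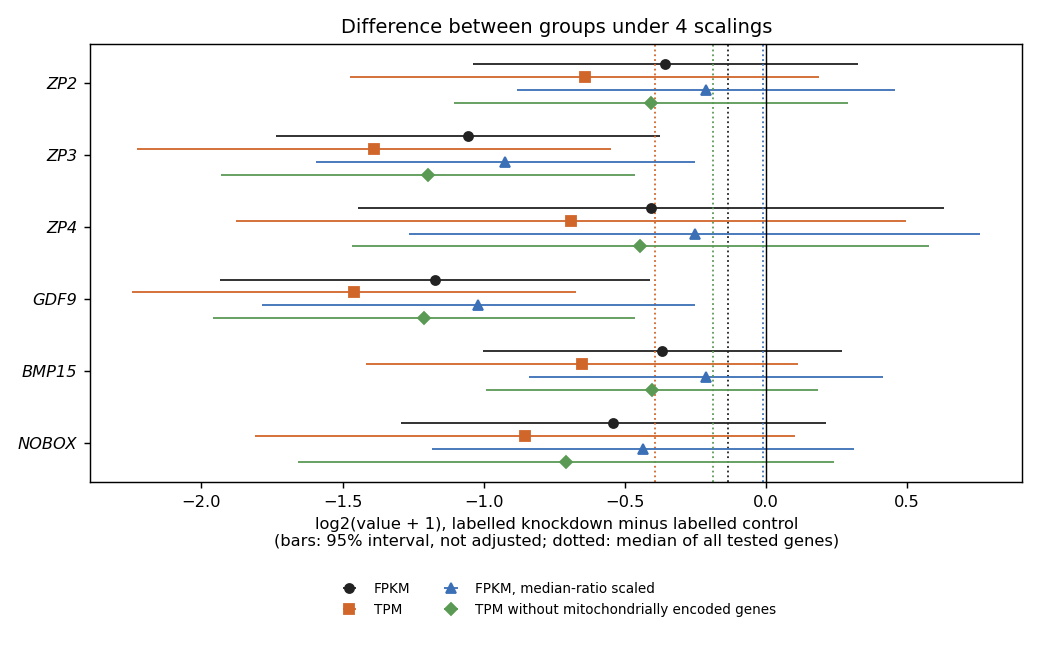
Log2 differences of the 6 tested genes, labelled knockdown minus labelled control, under 4 scalings, with 95% intervals from limma that are not adjusted for the number of genes; dotted lines mark the median of all tested genes under each scaling. GDF9 and ZP3 lie at -0.92 or lower under each of the 4, and the intervals of ZP2, ZP4, BMP15 and NOBOX include 0.

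The transcription factors were the rarest members. NOBOX (gene ID 100499552, chromosome 9, 113348363 to 113354504) stood at 2.62 and 3.04 FPKM in the control-labelled libraries and at 1.24 and 2.09 FPKM in the knockdown-labelled libraries. The groups did not overlap, and knockdown-labelled library 1 was the lowest. Its log2 difference was -0.54 (SE 0.31, Benjamini-Hochberg adjusted p from limma = 0.301), and a pseudocount of 0.1, which shrinks low levels less, gave -0.77 (adjusted p = 0.305).

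FIGLA (gene ID 100313961, chromosome 3, 71709580 to 71723760) stood at 2.1 and 0.249 FPKM in control-labelled libraries 1 and 2. It was listed at 0 in knockdown-labelled library 1 and at 0.781 FPKM in knockdown-labelled library 2. The highest library was a control-labelled library, but the other control-labelled library lay between the knockdown-labelled libraries. Its mean of 0.782 FPKM was under the minimum for the test. RefSeq lists 2 transcripts of FIGLA, and the value rests on 1 row. A listed 0 may be a failed estimate, since the ribosomal protein gene RPL3 was also listed at 0 in 3 libraries.

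**Figure D3:**
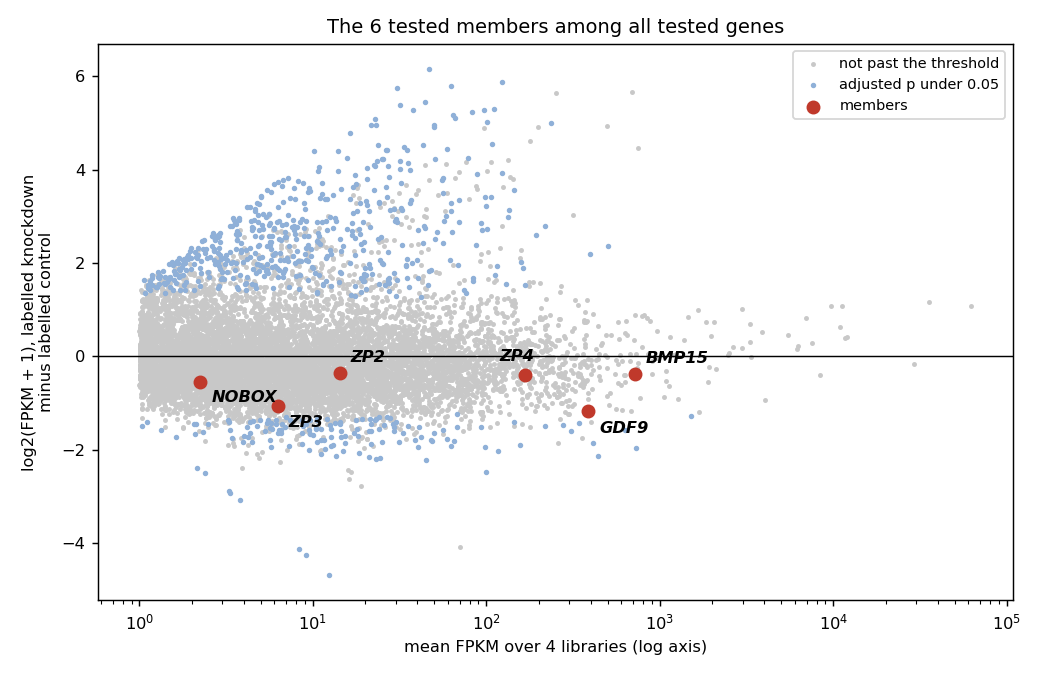
Mean FPKM over the 4 libraries (log axis) against the log2 difference, labelled knockdown minus labelled control, for all 9850 tested genes, with the 6 tested members as large points. GDF9 and ZP3 lie at the lower edge of the main cloud and ZP2, ZP4, BMP15 and NOBOX within it.

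Ratios between members within a library do not depend on how libraries are scaled. The ratio of BMP15 to GDF9 was 1.47 and 1.57 in the control-labelled libraries and 2.16 and 3.27 in the knockdown-labelled libraries, a ratio 1.75-fold higher on the geometric mean. The ratio of ZP2 to ZP3 was 2.04 and 1.64 in the control-labelled libraries and 3.63 and 3.04 in the knockdown-labelled libraries. The ratio of ZP4 to ZP3 was 22.0 and 19.6 against 27.7 and 49.4. In these 3 ratios both knockdown-labelled libraries were above both control-labelled libraries. The ratio of ZP4 to ZP2 overlapped, at 10.8 and 12.0 against 7.65 and 16.3. Of the 15 pairs of tested members, which share genes and are not independent, 8 had ratios that did not overlap between the groups in either direction, beside 59.3% of all pairs among the 9523 tested genes above 0 FPKM in every library, so the members' count was not above that background. With 2 libraries against 2 the smallest two-sided exact permutation p is 0.333, which each of these 8 pairs has, so no ratio can pass a threshold of 0.05.

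**Figure D4:**
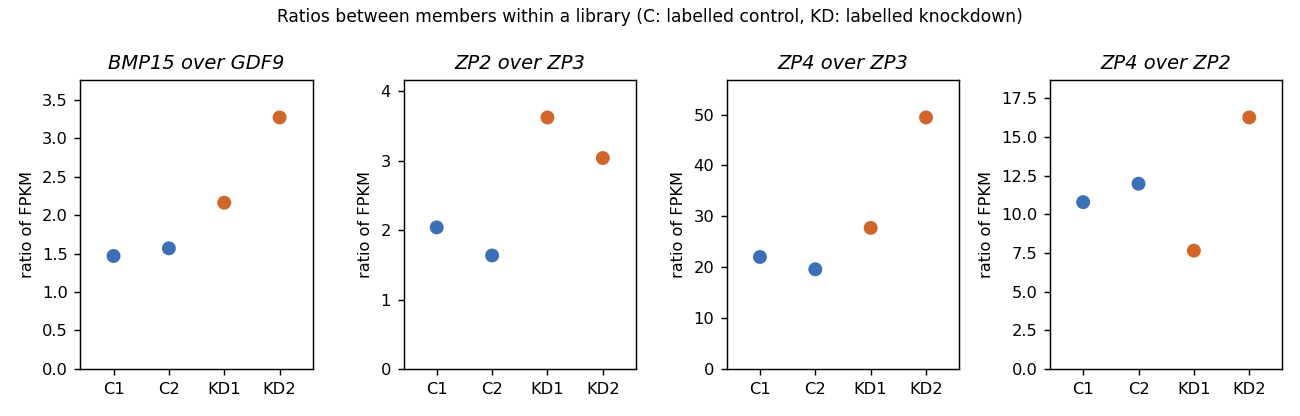
Ratio of FPKM between pairs of members in each library, on linear axes from 0, for labelled control (C1, C2) and labelled knockdown (KD1, KD2) libraries. BMP15 over GDF9, ZP2 over ZP3 and ZP4 over ZP3 are higher in both knockdown-labelled libraries, while ZP4 over ZP2 is lowest in KD1 and highest in KD2.

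In summed TPM, the growth factors made up 0.263% and 0.280% of all transcripts in the control-labelled libraries and 0.140% and 0.148% in the knockdown-labelled libraries. The zona genes made up 0.0454% and 0.0393% in the control-labelled libraries and 0.0164% and 0.0405% in the knockdown-labelled libraries, with knockdown-labelled library 2 between the controls. These shares move with the mitochondrial share given above, whose part in them was not tested beyond the rescaled values.

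Genes with the most similar profile over the 4 libraries were sought by root-mean-square distance of centred log2(FPKM + 1) values. Among 2148 genes within 4-fold of the mean level of the zona genes, the nearest to their mean profile were DNAJC9, CDCA7 and CLTA, at distances of 0.0171, 0.0228 and 0.0282 log2 units. That profile is an average of unlike genes. ZP4 was highest in knockdown-labelled library 2, at 206 FPKM, where ZP3 was at 4.16 FPKM, below both control-labelled libraries. Nearness to the average is therefore not nearness to each zona gene. DNAJC9, a histone co-chaperone, stood at 44.0 and 38.9 FPKM in the control-labelled libraries and at 22.5 and 31.0 FPKM in the knockdown-labelled libraries. Among 277 genes within 4-fold of the growth factors, ATG12, NLRP9 and SDC2 were nearest to their mean profile, at 0.0936, 0.121 and 0.165 log2 units. NLRP9, a gene of the NLRP family, stood at 341 and 422 FPKM in the control-labelled libraries and at 220 and 172 FPKM in the knockdown-labelled libraries. None of these 6 genes passed the test (limma, Benjamini-Hochberg adjusted p = 0.105 to 0.269). They were picked in these same libraries for likeness to members that did not pass, so this is not an independent result.

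Other genes of the egg surface differed in direction. Of 6 listed, 4 were in the table and 3 were tested. Of these 1 rose and none fell, beside 5.11% and 1.46% of all tested genes. The list median was -0.59. IZUMO1R, the egg's receptor for the sperm protein IZUMO1, stood at 6.29 and 3.97 FPKM in the control-labelled libraries and at 2.02 and 0.822 FPKM in the knockdown-labelled libraries. Both knockdown-labelled libraries were lower, and the log2 difference of -1.36 (SE 0.38) missed the threshold (limma, Benjamini-Hochberg adjusted p = 0.0908). ASTL, the protease that cleaves ZP2 in the mouse, stood at 4.92 and 3.07 FPKM against 2.20 and 2.32 FPKM (adjusted p = 0.274). The tetraspanin CD9, which the mouse egg needs to fuse with sperm, was called higher. It was listed at 0 in both control-labelled libraries and stood at 3.81 and 4.16 FPKM in the knockdown-labelled libraries (limma, Benjamini-Hochberg adjusted p = 0.0154). A listed 0 may be a failed estimate, and the call on CD9 rests on a listed 0 in both control-labelled libraries. CD9 missed the threshold without control-labelled library 1 and without either knockdown-labelled library (adjusted p = 0.0519, 0.127 and 0.0732).

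Of 17 genes that process the growth factors or carry their signal, all in the table, 11 were tested. None passed in either direction (limma). At an unadjusted p under 0.05 BMPR2 and SMAD5 were lower, beside 13.9% of all tested genes (limma). The median log2 difference of the 11 was -0.14. BMPR2, the type II receptor for GDF9 and BMP15, stood at 30.6 and 26.4 FPKM in the control-labelled libraries and at 10.3 and 14.8 FPKM in the knockdown-labelled libraries. Both knockdown-labelled libraries were below both control-labelled libraries, with a log2 difference of -1.14 (SE 0.30, Benjamini-Hochberg adjusted p from limma = 0.0829). SMAD5, which carries the signal of BMP receptors, stood at 119 and 92.4 FPKM against 51.8 and 69.2 FPKM (adjusted p = 0.157), and SMAD1 at 13.03 and 10.8 against 9.71 and 9.24 FPKM (adjusted p = 0.510). The type I receptor BMPR1B stood at 6.44 and 6.70 FPKM against 4.58 and 8.25 FPKM, with the knockdown-labelled libraries on either side of the control-labelled libraries. TGFBR1 stood at 2.11 and 1.13 FPKM against 2.83 and 3.16 FPKM (adjusted p = 0.250).

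Other transcription factors of the oocyte, and the ID proteins that bind helix-loop-helix factors, varied in direction. Of 13 listed, 11 were in the table and 7 were tested. Of these 1 rose and none fell, beside 5.11% and 1.46% of all tested genes. The list median was 0.18. A negative log2 difference was found for 3 and a positive one for 4, beside 57.6% negative among all tested genes. ID1, an inhibitor of helix-loop-helix factors that BMP signalling induces in many cells, rose from 0.586 and 0.778 FPKM in the control-labelled libraries to 5.34 and 4.94 FPKM in the knockdown-labelled libraries. Its log2 difference was 1.87 (SE 0.28, Benjamini-Hochberg adjusted p from limma = 0.0243), and it missed the threshold when any 1 of the 4 libraries was left out (adjusted p = 0.0511 to 0.157). Its relative ID3 stood at 954 and 351 FPKM in control-labelled libraries 1 and 2 and at 436 and 234 FPKM in the knockdown-labelled libraries, where the groups overlapped. LHX8, a LIM homeobox factor of oocytes, stood at 32.6 and 28.3 FPKM against 29.3 and 46.4 FPKM, and TAF4B, a germ-cell subunit of the transcription factor TFIID, at 5.47 and 5.09 against 20.5 and 11.2 FPKM (adjusted p = 0.0799). TBPL2 went the other way, at 12.6 and 9.34 FPKM in the control-labelled libraries and 4.25 and 6.32 FPKM in the knockdown-labelled libraries. Its log2 difference was -0.93 (limma, Benjamini-Hochberg adjusted p = 0.132). TCF3, which encodes E proteins that pair with FIGLA in the mouse, did not exceed 0.182 FPKM, and SOHLH1 was listed at 0 in every library.

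Of 8 other secreted factors and KIT, all in the table, 2 were tested and none passed at the adjusted or the unadjusted threshold (limma). KITLG, the ligand of KIT, stood at 31.0 and 27.3 FPKM in the control-labelled libraries and at 30.8 and 26.9 FPKM in the knockdown-labelled libraries, a log2 difference of -0.017 (95% interval -0.68 to 0.64). KIT, the receptor on the oocyte, stood at 9.64 and 6.83 FPKM against 4.35 and 5.14 FPKM (limma, Benjamini-Hochberg adjusted p = 0.212). The rest did not exceed 0.596 FPKM in any library; BMP6 had that value in control-labelled library 1, and FGF9 had the highest mean over the 4 libraries, at 0.358 FPKM.

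RNA of other genes with maternal effect or mRNA storage roles was lower in part. Of 23 maternal effect and mRNA storage genes, 22 were in the table and 19 were tested. Of these 6 fell and none rose, beside 1.46% and 5.11% of all tested genes. A negative log2 difference was found for 18, beside 57.6% of all tested genes. The list median was -0.76 beside -0.47 for the members. WEE2, H1FOO, KPNA7, ZAR1L, MOS and LIN28A fell, and LIN28A, an RNA-binding protein that blocks let-7, went from 12.9 ± 0.992 to 4.43 ± 0.434 FPKM (SD, n = 2 each), with a log2 difference of -1.36 (limma, Benjamini-Hochberg adjusted p = 0.0454). LIN28A missed the threshold when any 1 library was left out (adjusted p = 0.128 to 0.206), and H1FOO, a sum of 2 rows, had a log2 difference of 0.79 on its highest row alone (adjusted p = 0.809). BTG4, an adaptor that brings the deadenylase to maternal RNA, was the highest of the list and stood at 2392 and 2147 FPKM against 1501 and 2380 FPKM (adjusted p = 0.628). The list had 0 calls without control-labelled library 1, without either knockdown-labelled library or with no filter on low values. The difference between this list and the members was not tested.

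Of 21 genes linked to embryonic genome activation, 19 were in the table and tested. Of these 9 rose and none fell, beside 5.11% and 1.46% of all tested genes. The list median was 2.32. The list was chosen with earlier results of these data known, so its count and median are not an independent result. DPPA2, a factor that opens early embryonic promoters in the mouse, rose from 1.93 and 5.57 FPKM to 77.2 and 60.4 FPKM, a log2 difference of 3.98 (SE 0.44, Benjamini-Hochberg adjusted p from limma = 0.0135), and the translation initiation factor EIF2S1 rose from 10.5 and 8.48 FPKM to 34.7 and 34.6 FPKM (adjusted p = 0.0262). EIF2S1 missed the threshold when any 1 library was left out (adjusted p = 0.0801 to 0.179). The others that rose were ARGFX, TFAM, FBL, NOP58, EIF3A, EIF1AX and SRSF3. By level, DUXA led at 252 and 303 FPKM against 332 and 328 FPKM (adjusted p = 0.561). The list had 0 calls without knockdown-labelled library 1, without knockdown-labelled library 2 and with no filter, 3 with the highest transcript row per gene, 4 under the replicate block and 5 without control-labelled library 1.

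**Figure D5:**
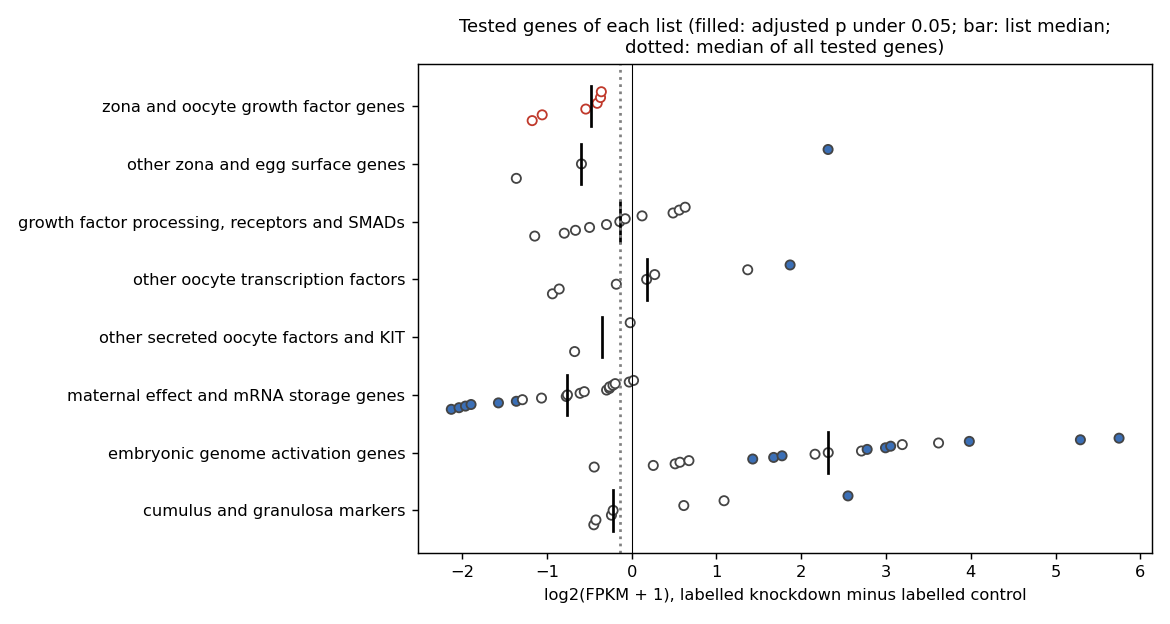
Log2 differences of the tested genes of 8 lists, 1 point per gene, with filled points past the threshold, a bar at each list's median and a dotted line at the median of all tested genes, -0.135. The members spread from -1.17 to -0.36 with no filled point, the maternal effect list has 6 filled points below 0 and the genome activation list 9 above it.

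GDF9 and BMP15 signal to cumulus cells, so markers of those cells were measured beside them. Of 23 cumulus and granulosa markers, 18 were in the table, and their summed level was 22.8 and 16.2 FPKM in the control-labelled libraries and 28.9 and 21.3 FPKM in the knockdown-labelled libraries. INHBA and FST were the highest in the control-labelled libraries, with INHBA at 7.87 and 6.28 against 5.80 and 4.29 FPKM and FST at 9.83 and 3.40 against 5.48 and 2.96 FPKM, and NR5A2 was the highest in both knockdown-labelled libraries. AMH and PTGS2 were listed at 0 in every library, and FSHR and LHCGR did not exceed 0.0684 FPKM. Of the 18 markers, however, 8 reached 1 FPKM in a library. Beside INHBA, FST and NR5A2 these were VCAN, GREM1, TNFAIP6, VIM and DCN. VCAN peaked at 2.96 FPKM in control-labelled library 2 and GREM1 at 2.33 FPKM in control-labelled library 1. TNFAIP6 peaked at 4.32 and VIM at 2.81 FPKM in knockdown-labelled library 1, and DCN at 3.67 FPKM in knockdown-labelled library 2. Of 7 tested markers 1 rose and none fell, beside 5.11% and 1.46% of all tested genes. The marker that rose was NR5A2, an orphan receptor that the early mouse embryo also expresses. NR5A2 went from 0 and 0.234 FPKM to 6.47 and 4.68 FPKM (limma, Benjamini-Hochberg adjusted p = 0.0154). NR5A2 missed the threshold without control-labelled library 1 and without either knockdown-labelled library (adjusted p = 0.0538 to 0.133). The 7 blood cell and sperm markers in the table summed to 0.22 to 1.09 FPKM, with CD68, AKAP4 and PTPRC the highest by mean over the 4 libraries. The part of either marker list in the members' levels was not tested.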

How the data were processed

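The deposited table covers 4 RNA-seq libraries of 4-cell pig embryos, 2 per label. Per the labels' protocols, a Qiagen RNeasy kit gave the RNA and a SMARTer mRNA-seq kit the libraries, with amplified cDNA. The tools were StringTie 2.1.7, Bowtie2 2.3.5 and cutadapt, with the build Sscrofa11.1, per the submitters' processing notes, and their roles, filters and the annotation release are not given here. If Bowtie2, an aligner without splicing, was run on the genome, levels of genes with many exons could be understated.

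Per the file headers, the authors deposited coverage (signal per base, unscaled for depth), FPKM and TPM for 35395 transcript rows in each library. The authors scaled deposited FPKM per transcript length and library size, and deposited TPM so that libraries share a sum. No counts were used. Coverage over FPKM was read as aligned gigabases; in rows above 1 FPKM it was constant per library (tolerance 1e-04 of the constant) except in the TFAP2C row.

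Of the rows, 32816 were named by RefSeq accession, 4 by another version of it, 2305 by symbol and 246 by the file's name, and 24 had no name. FPKM was summed per gene. Those averaging 1 FPKM or more, 9850 in all, entered a fit by limma 3.58.1 in R 4.3.3 of log2(FPKM + 1) on group alone (eBayes with trend), with two-sided p-values and Benjamini-Hochberg adjustment. The pseudocount understates differences of low genes. The fit was also run on simulated data with known changes, whose outcome is not given here and on which no result rests. The text names the members, TFAP2C, the called genes and the 3 highest of each list, and the 3 nearest genes per profile; other list genes were named for their roles or values after these were seen. The members and lists were chosen with earlier results of these data known. Alternatives were TPM, a pseudocount of 0.1, no filter, a minimum mean of 5 FPKM, median-ratio scaling, the highest transcript row per gene, each library left out, a replicate block and no trend.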

Additional observations from a re-analysis of the deposited data

How the results depend on the processing

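Of 83 values of the 6 tested members under 14 alternatives, 81 kept their direction and stayed on the same side of the threshold. GDF9 passed with TPM (-1.46, limma, Benjamini-Hochberg adjusted p = 0.048), which made 1 member called lower in place of 0, and ZP4 turned to 0.16 without knockdown-labelled library 1 (adjusted p = 0.743) and was -0.98 without knockdown-labelled library 2. With a minimum mean of 5 FPKM, NOBOX was not tested. Over all genes, 503 were called higher and 144 lower (limma). These counts were 312 and 62 with a pseudocount of 0.1, 0 and 0 with no filter (1930 and 1766 at an unadjusted p under 0.05), 320 and 124 with a minimum mean of 5 FPKM, 540 and 78 after median-ratio scaling, 452 and 268 with TPM, and 120 and 33 with the highest transcript row per gene. Leaving out 1 library gave 0 to 479 higher and 0 to 47 lower; both were 0 without knockdown-labelled library 1 (978 higher and 811 lower unadjusted) and without knockdown-labelled library 2 (1413 and 1261 unadjusted). Of the 4 pathway lists together, 2 genes rose, CD9 and ID1; this was 0 with no filter, with a minimum mean of 5 FPKM and under the replicate block, 1 with the highest transcript row, and 0 to 1 without 1 library. The maternal effect list had 6 calls lower, and 0 with the highest transcript row and under the replicate block. H1FOO turned to 0.79 with the highest transcript row (adjusted p = 0.809). The cause of these shifts was not tested, other than that a higher minimum tests fewer genes.

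The replicate block gave 125 genes higher and 8 lower. The replicate numbers are not said to pair the libraries, and the deviations of same-numbered libraries correlated at -0.143 across 9850 genes; the crossed replicate block, chosen after seeing the data, gave 611 higher and 119 lower. No alternative except no filter on low values tested FIGLA, which was listed at 0 in 1 library and gave -0.56 there (limma, Benjamini-Hochberg adjusted p = 0.637).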

Other observations

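The control-labelled libraries stood more than 2-fold apart in 10 of the 19 genome activation genes in the table, in 1 of the 7 members, FIGLA, and in 15.4% of all tested genes. In control-labelled libraries 1 and 2, LEUTX, a homeobox gene of early embryos, stood at 1.23 and 87.3 FPKM, NANOG, a pluripotency factor, at 0.0392 and 16.5 FPKM, and TFAM, which packages mitochondrial DNA, at 0.754 and 13.3 FPKM. KLF17 and UBTFL1 were listed at 0 in control-labelled library 1 and stood at 17.7 and 3.64 FPKM in control-labelled library 2. The other 9 genome activation genes were within 2-fold, among them DUXA at 252 and 303 FPKM, SRSF3 at 39.0 and 40.3 FPKM and EIF2S1 at 10.5 and 8.48 FPKM. The count and the named genes were chosen after the values were seen, and no test was made of the difference between the control-labelled libraries.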
